A study of Mus musculus with 4 samples.

Results

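The 40 genes described here encode transcription factors that mark or specify the first lineages of the mouse embryo: 10 of the trophectoderm, 8 of the endoderm, 12 of the mesoderm and primitive streak, and 10 of the neural lineage. They were chosen by name, and all probe sets that the platform annotation gives to them alone were used. Of the 40 genes, 37 were measured, with 62 probe sets, out of 17097 named genes with 28898 probe sets. They comprised all 10 trophectoderm genes (18 probe sets), 7 endoderm genes (14), 11 mesoderm genes (14) and 9 neural genes (16). Gata5, T and Zic1 were not analysed here.

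RNA came from J1 mouse embryonic stem (ES) cells, a pluripotent line grown without feeder cells in medium with serum and LIF, and was hybridised to 4 Affymetrix 3' expression arrays. The conditions were Tet1/Tet2 KD + PRDM14 (knockdown of Tet1 and Tet2, with PRDM14 overexpressed), Scramble + PRDM14 (control knockdown, with PRDM14 overexpressed), Tet1/Tet2 KD (knockdown alone) and Scramble (control knockdown alone). According to the extraction protocol all cells were of the iP14 kind, the knockdown was by shTet1/Tet2, and the PRDM14 state was set by doxycycline. How many clones were used and for how many days they were treated is not stated in the labels. Each condition had 1 array, so no difference can be compared with replicate error, and precision is limited by how few arrays there are.

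As background, ES cells resemble the pluripotent epiblast, and the factors of later lineages are mostly silent or held at a low, poised level in them. Many of their genes start in CpG-rich promoters marked by Polycomb complexes. TET proteins are dioxygenases that oxidise 5-methylcytosine, and PRDM14, a PR-domain protein found in pluripotent cells and the germ line, represses differentiation genes. The question addressed is how far these lineage factors differed with PRDM14, with the knockdown, or with their combination.

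The sequences just upstream of 3 neural factors are shown because these genes had the widest PRDM14 difference in scramble cells. Also shown is that of Msx1, a mesoderm factor whose brightest probe set gave a bright and nearly level signal. These 4 were picked after their values were seen. The sequences are from RefSeq on build GRCm38.p6, cover the 250 bases before the annotated start, run 5' to 3' on the strand of the gene, and have every CG dinucleotide in capitals. The Pax6 stretch is chr2:105668646-105668895 on the plus strand, before the first of 2 listed starts, and holds 15 CG. The Neurod1 stretch is chr2:79456637-79456886 on the minus strand, with 22 CG. For Gbx2 it is chr1:89931177-89931426 on the minus strand, with 18 CG. The Msx1 stretch is chr5:37824586-37824835 on the minus strand, with 20 CG.
Pax6: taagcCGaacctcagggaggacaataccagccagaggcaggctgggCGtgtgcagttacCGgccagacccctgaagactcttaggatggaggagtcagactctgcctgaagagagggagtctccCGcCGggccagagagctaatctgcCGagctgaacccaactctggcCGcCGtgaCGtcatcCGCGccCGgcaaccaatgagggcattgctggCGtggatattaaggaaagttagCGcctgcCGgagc
Neurod1: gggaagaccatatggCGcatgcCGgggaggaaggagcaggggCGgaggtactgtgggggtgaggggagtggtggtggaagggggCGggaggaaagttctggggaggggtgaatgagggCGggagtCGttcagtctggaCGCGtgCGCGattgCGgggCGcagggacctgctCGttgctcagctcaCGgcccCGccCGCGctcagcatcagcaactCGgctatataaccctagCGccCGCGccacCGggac
Gbx2: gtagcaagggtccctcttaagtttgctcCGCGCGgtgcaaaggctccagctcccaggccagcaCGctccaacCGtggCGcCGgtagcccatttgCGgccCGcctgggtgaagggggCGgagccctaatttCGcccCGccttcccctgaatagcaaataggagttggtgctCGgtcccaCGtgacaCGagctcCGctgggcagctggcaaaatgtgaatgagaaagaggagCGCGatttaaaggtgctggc
Msx1: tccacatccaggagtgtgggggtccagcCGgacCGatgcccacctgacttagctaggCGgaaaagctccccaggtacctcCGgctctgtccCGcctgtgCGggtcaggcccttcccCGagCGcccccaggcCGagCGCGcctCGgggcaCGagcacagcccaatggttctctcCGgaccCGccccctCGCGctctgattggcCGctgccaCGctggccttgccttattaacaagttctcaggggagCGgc

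The differing genes and the level gene alike held many CG. RefSeq promoter windows of 300 bases (250 before and 50 after the start) were listed for 28 of the 37 measured members, and all 28 held at least 1 CG, a motif that reads the same on both strands. The same was true of 98.2% of the 13605 named genes with a listed window. The median was 17.5 CG per window for the members and 17 for the named genes. By group it was 18 for 7 trophectoderm genes, 16 for 3 endoderm genes, 11 for 10 mesoderm genes and 26.5 for 8 neural genes, among which Hes5 had 41 and Sox1 had 37. Methylation was not measured on these arrays, and nothing about it is read from these counts.

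The 4 arrays had nearly the same distribution, with medians of log2 signal from 5.09 to 5.11. Markers of pluripotent cells fitted the cell label: 11 of 12 listed markers were measured and all 11 lay above the filter value of 5.40 on all 4 arrays. The filter is the median signal over the named probe sets and all arrays, and is not a measure of background. Of 10 fibroblast markers, 3 (Dcn, Fbln1 and Acta2) lay above it on all 4 arrays, and the summed linear signal of the 10 was 359 on the KD + PRDM14 array, 359 on scramble + PRDM14, 386 on KD and 363 on scramble. The brightest Tet2 probe set read 8.15 on the KD + PRDM14 array against 9.33 on scramble + PRDM14, and 7.50 on the KD array against 8.46 on scramble, so both knockdown arrays were lower. Its PRDM14 differences were 0.86 in scramble cells and 0.65 in knockdown cells. The other Tet2 probe set had smaller knockdown differences, -0.58 with PRDM14 and -0.56 without it. No Tet1 value is given here. The Prdm14 probe set read 4.61 on KD + PRDM14 against 4.35 on KD, and 4.83 on scramble + PRDM14 against 4.53 on scramble, below the filter throughout, and gives no check of the PRDM14 labels. Every direction of a PRDM14 difference below therefore rests on those labels. Over all named genes the scramble array stood furthest apart, with 49 genes at least 2-fold from all other arrays, against 12 for KD + PRDM14, 27 for scramble + PRDM14 and 7 for KD. Over the 37 lineage factors it was the scramble + PRDM14 array, with a root mean square distance of 0.282 on the log2 scale, against 0.148 for KD + PRDM14, 0.189 for KD and 0.184 for scramble. That value is largely due to Pax6 alone, at 7.12 on this array and between 5.36 and 6.26 on the others. It does not show that the factors as a set stood apart there. The 2 comparisons that use the scramble + PRDM14 array cannot be made without it.

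Most of the lineage factors gave low signals. Taking for each gene its probe set with the highest mean, 12 of the 37 reached the filter on all 4 arrays, 5 on some arrays and 20 on none. Thus 45.9% reached it on at least 1 array, against 61.5% of all named genes. The share was 7 of 10 for trophectoderm, 3 of 7 for endoderm, 4 of 11 for mesoderm and 3 of 9 for neural genes. The mean log2 signal over the arrays had a median of 5.16 over the members and 5.84 over all named genes. As a yardstick for low signals, 86 probe sets of odorant, vomeronasal and taste receptors, which serve sensory neurons and taste cells, had means with a median of 4.46 and a 95th percentile of 6.16, and the highest was 6.92. Of the 37 members 9 had a mean above that 95th percentile, namely Hand1, Gata2, Tead4, Dlx3, Hnf4a, Msx1, Nkx2-5, Pax3 and Neurod1, and 2 of them, Hand1 and Msx1, exceeded the highest receptor probe set. Probe sets differ in affinity, so these levels give no order between genes and no call of presence or absence.

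**Figure D1:**
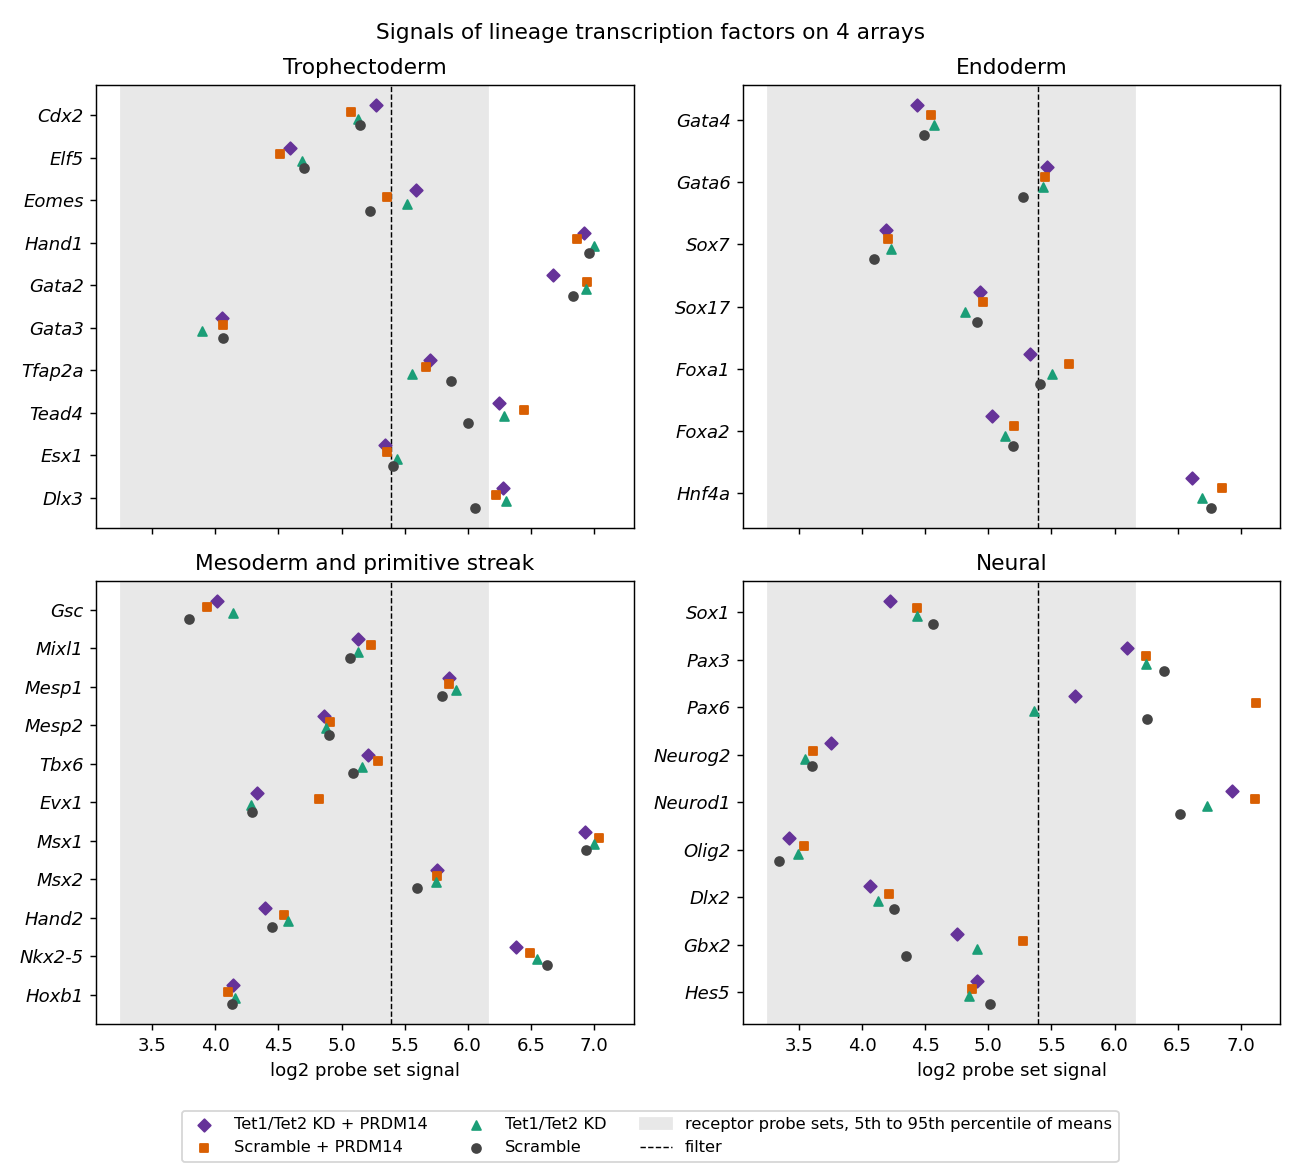
Log2 signal (x axis) of the probe set with the highest mean for each of the 37 measured lineage factors (rows), with 1 symbol per array, in 4 panels by lineage. The dashed line is the filter value of 5.40 and the grey band spans the 5th to the 95th percentile (3.25 to 6.16) of the means of 86 sensory receptor probe sets. For most genes the 4 symbols lie close together, and Pax6 spreads widest, between 5.36 and 7.12.

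The signals were also nearly level across the 4 conditions, with Pax6 as the exception. The range of a member over the 4 arrays had a median of 0.19, against 0.20 for all named genes. Only Pax6 spanned at least 1 (2-fold), at 1.76, which is 1 of 37 members (2.70%) against 2.46% of all named genes. Gbx2 followed at 0.93, Neurod1 at 0.60 and Evx1 at 0.54. A range of at least 0.5 was thus found in 4 of 37 members (10.8%), against 12.8% of all named genes, so these 4 are not unusual as a count. The other 33 members had ranges of at most 0.44, and the widest range among the receptor probe sets was likewise 0.44.

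Pax6, the paired-box factor of eye, forebrain and neural progenitors, was the member that differed most. Its brightest probe set read 5.69 on the KD + PRDM14 array, 7.12 on scramble + PRDM14, 5.36 on KD and 6.26 on scramble. Both scramble arrays were thus above both knockdown arrays, and within each background the array labelled with PRDM14 was the higher. The knockdown difference was -1.43 with PRDM14 (2.70-fold lower) and -0.89 without it (1.86-fold lower). The PRDM14 difference was 0.87 in scramble cells (1.82-fold higher) and 0.33 in knockdown cells (1.25-fold higher). The value of -1.43 was the 11th lowest of 10322 genes compared.

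The other probe sets of Pax6 did not show a difference of that size. There were 4 of them, all below the filter on every array, between 3.51 and 5.05. Their knockdown differences with PRDM14 ran from -0.47 to 0.01, and without PRDM14 from -0.17 to -0.06. One of the 4 had the same order of arrays as the brightest, at 4.36 on KD + PRDM14, 4.82 on scramble + PRDM14, 4.22 on KD and 4.37 on scramble. With the mean of all 5 probe sets the knockdown difference with PRDM14 was -0.42, so the 2-fold difference rests on 1 probe set. In RNA from a whole culture, fewer cells that express a gene and less of its RNA per cell cannot be told apart. Klf4, a naive pluripotency factor, was the pluripotency marker at least 2-fold lower in the same comparison (6.36 on KD + PRDM14 against 7.58 on scramble + PRDM14), and its part in the Pax6 difference was not tested.

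Neurod1, a basic helix-loop-helix (bHLH) factor of neuronal and endocrine differentiation, was the next neural member above the filter. It read 6.93 on KD + PRDM14, 7.11 on scramble + PRDM14, 6.74 on KD and 6.52 on scramble. Both arrays labelled with PRDM14 were above both arrays without it. The PRDM14 difference was 0.60 in scramble cells (1.51-fold) and 0.19 in knockdown cells (1.14-fold). The other Neurod1 probe set gave 0.60 and 0.57, with signals of 5.64 on KD + PRDM14, 5.50 on scramble + PRDM14, 5.07 on KD and 4.91 on scramble, so its 2 arrays with PRDM14 passed the filter and its 2 arrays without it did not.

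Gbx2, a homeobox factor of the anterior hindbrain that is also a LIF-STAT3 target supporting self-renewal in mouse ES cells, read below the filter throughout. Its values were 4.75 on KD + PRDM14, 5.27 on scramble + PRDM14, 4.91 on KD and 4.34 on scramble. The PRDM14 difference was 0.93 in scramble cells (1.90-fold) and -0.16 in knockdown cells. The knockdown difference was -0.52 with PRDM14 and 0.56 without it. With lower values set to the filter, all 4 differences were 0, so they lie wholly in the low range.

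The remaining neural members were level. Pax3, the paired-box factor of dorsal neural tube and neural crest, read 6.10 on KD + PRDM14, 6.25 on scramble + PRDM14, 6.25 on KD and 6.39 on scramble, with differences from -0.15 to -0.14 in the 4 comparisons. Its other probe sets read between 3.83 and 4.31, below the filter. Sox1 (an early neuroectoderm SOX factor), Neurog2 (a proneural bHLH factor), Olig2 (a bHLH factor of motor neuron and oligodendrocyte progenitors), Dlx2 (a forebrain homeobox factor) and Hes5 (a Notch target) lay between 3.34 and 5.01, and none of their differences exceeded 0.21 in size. Without Pax6, Neurod1 and Gbx2, the other 6 neural genes had PRDM14 differences between -0.14 and 0.19 in scramble cells, with a median of -0.08.

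**Figure D2:**
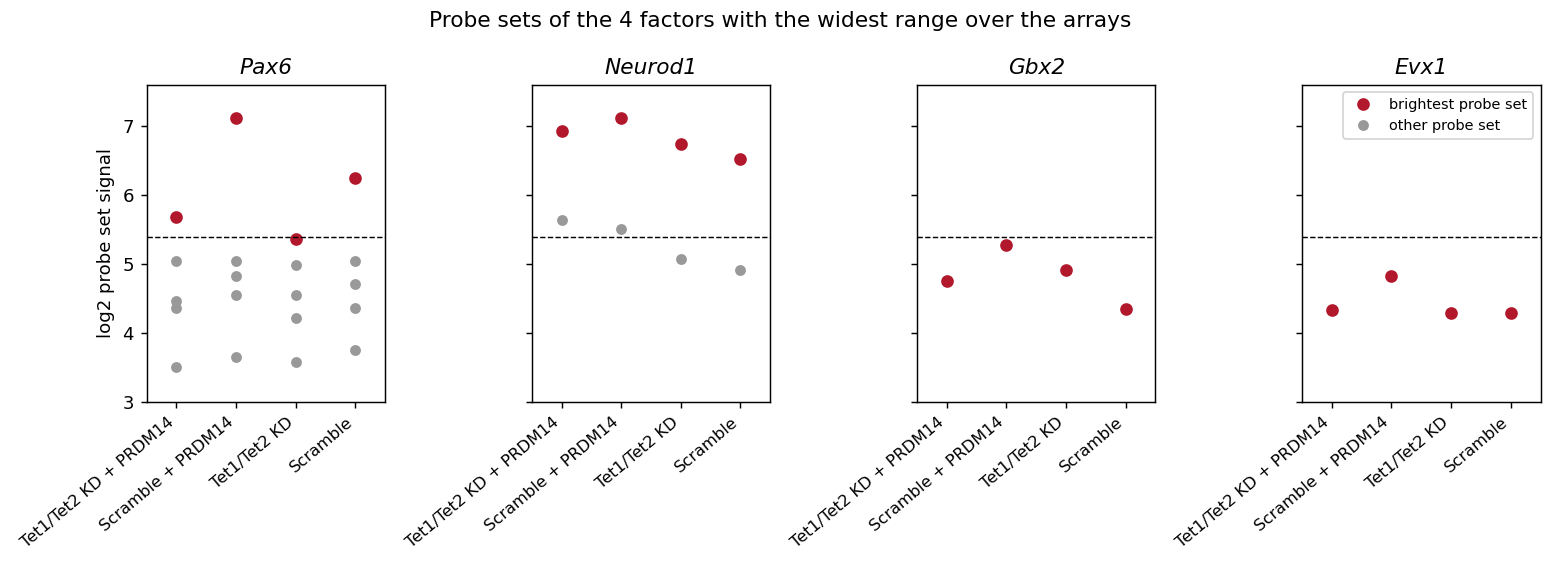
Log2 signal (y axis) of every probe set of Pax6, Neurod1, Gbx2 and Evx1 on the 4 arrays (x axis), red for the brightest probe set of a gene and grey for its others, with the filter of 5.40 dashed. The brightest Pax6 probe set runs from 5.36 on KD to 7.12 on scramble + PRDM14 while the other 4 stay between 3.51 and 5.05, and both Neurod1 probe sets are higher on the arrays labelled with PRDM14.

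No trophectoderm factor was 2-fold apart in any of the 4 comparisons. Of all genes compared, at most 1.09% were higher and at most 1.00% lower in any of them. With 6 or 7 of the group compared each time, so few genes could well hold no call, and the count is no result about trophectoderm. Eomes, a T-box factor of trophoblast stem cells and later of the primitive streak, read 5.59 on KD + PRDM14, 5.36 on scramble + PRDM14, 5.52 on KD and 5.23 on scramble. Both knockdown arrays were above both scramble arrays, by 0.23 with PRDM14 and 0.29 without it, and by 0.31 and 0.27 on the other Eomes probe set. Tead4, the TEAD factor that acts upstream of Cdx2 in the trophectoderm, read 6.25 on KD + PRDM14, 6.44 on scramble + PRDM14, 6.29 on KD and 6.01 on scramble. Its PRDM14 difference in scramble cells, 0.44, was the largest of the group, and its other probe set, below the filter, gave 0.02.

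Several trophoblast factors were among the brighter members and stayed level. Hand1, a bHLH factor of trophoblast giant cells and heart, read 6.92 on KD + PRDM14, 6.87 on scramble + PRDM14, 7.01 on KD and 6.96 on scramble. Gata2, a GATA factor of trophoblast and blood progenitors, read 6.68 on KD + PRDM14, 6.94 on scramble + PRDM14, 6.94 on KD and 6.84 on scramble, so the KD + PRDM14 array was the lowest, by 0.27 against scramble + PRDM14. The second probe sets of both genes read lower, at 5.23 to 5.35 for Hand1 and 3.85 to 4.13 for Gata2, so the level of neither gene is settled by these arrays. Dlx3, a placental homeobox factor, read 6.28 on KD + PRDM14, 6.23 on scramble + PRDM14, 6.30 on KD and 6.06 on scramble.

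Tfap2a, an AP-2 factor of trophoblast and surface ectoderm, read 5.70 on KD + PRDM14, 5.67 on scramble + PRDM14, 5.56 on KD and 5.87 on scramble. Esx1, an X-linked homeobox factor of the placenta, read 5.35 on KD + PRDM14, 5.36 on scramble + PRDM14, 5.44 on KD and 5.41 on scramble, at the filter. Cdx2, the caudal-type factor that defines the trophectoderm, Elf5, an ETS factor of trophoblast stem cells, and Gata3 read between 3.90 and 5.27, below the filter on all arrays. None of their differences exceeded 0.20 in size.

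The endoderm factors lay low and close together. Hnf4a, a nuclear receptor of visceral endoderm and liver, read 6.61 on KD + PRDM14, 6.85 on scramble + PRDM14, 6.69 on KD and 6.76 on scramble. Its 3 other probe sets were dimmer, and 2 of them lay below the filter on all arrays. Gata6, the GATA factor that specifies primitive endoderm, read 5.47 on KD + PRDM14, 5.45 on scramble + PRDM14, 5.43 on KD and 5.28 on scramble, around the filter. Foxa1, a forkhead pioneer factor of endoderm, read 5.33 on KD + PRDM14, 5.64 on scramble + PRDM14, 5.51 on KD and 5.41 on scramble, and its knockdown difference with PRDM14, -0.31, was the largest of the group. Gata4, Sox7 and Sox17 (factors of primitive endoderm) and Foxa2 (a forkhead factor of definitive endoderm and axial mesoderm) read between 4.09 and 5.20, with differences of at most 0.17 in size.

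Among the mesoderm and primitive streak factors, Evx1 differed most and did so below the filter. Evx1, a homeobox factor of the posterior streak, read 4.33 on KD + PRDM14, 4.82 on scramble + PRDM14, 4.28 on KD and 4.29 on scramble, so the scramble + PRDM14 array stood above the rest. The PRDM14 difference in scramble cells was 0.53 and the knockdown difference with PRDM14 was -0.49, both 0 with raised values. Gsc, the goosecoid homeobox factor of the organiser, read 4.01 on KD + PRDM14, 3.93 on scramble + PRDM14, 4.14 on KD and 3.79 on scramble.

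The 4 mesoderm members above the filter were level by their brightest probe sets. Msx1, a homeobox repressor responsive to BMP, read 6.93 on KD + PRDM14, 7.04 on scramble + PRDM14, 7.00 on KD and 6.94 on scramble. The other Msx1 probe set read lower, at 5.61 to 5.75. Its relative Msx2 read 5.76 on KD + PRDM14, 5.75 on scramble + PRDM14, 5.75 on KD and 5.60 on scramble. Nkx2-5, a cardiac homeobox factor, read 6.38 on KD + PRDM14, 6.50 on scramble + PRDM14, 6.55 on KD and 6.63 on scramble. Mesp1, a bHLH factor of nascent mesoderm, read 5.85 on KD + PRDM14, 5.85 on scramble + PRDM14, 5.91 on KD and 5.80 on scramble. Mixl1 (a streak homeobox factor), Mesp2 (a segmentation factor), Tbx6 (a T-box factor of paraxial mesoderm), Hand2 (a cardiac and limb bHLH factor) and Hoxb1 (an anterior Hox factor) lay between 4.10 and 5.29, with differences of at most 0.20 in size.

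The first comparison set scramble + PRDM14 against scramble. None of the 16 members whose higher array reached the filter was at least 2-fold higher or lower, against backgrounds of 1.09% higher and 1.00% lower among 10366 genes. Without a filter, 3 of 37 members (8.11%), Gbx2, Pax6 and Neurod1, were at least 1.5-fold apart, all higher with PRDM14, against 5.19% of all named genes in either direction. The median was 0.09 against 0.00 for all named genes. The difference was above 0 in 26 of 37 members (70.3%), against 50.9% of those genes. By group it was above 0 in 5 of 10 trophectoderm genes (median -0.02), 7 of 7 endoderm genes (0.09), 9 of 11 mesoderm genes (0.10) and 5 of 9 neural genes (0.01). These counts use the brightest probe set of each gene, and of 19 members with several probe sets only 9 had all of them on the same side of 0 in this comparison. In the endoderm group, Gata6 (-0.01), Sox7 (-0.02), Sox17 (-0.14) and Hnf4a (-0.18 and -0.07) had other probe sets below 0. By the brightest probe set the endoderm differences ran from 0.01 to 0.23, inside the span of the receptor probe sets in this comparison, -0.37 to 0.25.

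The second comparison set KD + PRDM14 against KD and shared no array with the first. None of 17 members was 2-fold apart, against 0.359% of 10311 genes higher and 0.272% lower. The median was -0.04 against -0.01 for all named genes and -0.03 for the receptor probe sets. Of all named genes 48.0% were above 0, and here 13 of 37 differences (35.1%) were, with 24 below. They were above 0 in 4 of 10 trophectoderm genes (median -0.03), 2 of 7 endoderm genes (-0.08), 3 of 11 mesoderm genes (-0.02) and 4 of 9 neural genes (-0.07). Pax6, at 0.33, was the largest of the 37, and 33 of 37 differed by under 0.2 in size, against 83.7% of all named genes.

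The knockdown comparisons gave 1 member at least 2-fold apart. In KD against scramble, none of 17 members passed 2-fold, against 0.618% of 10351 genes higher and 0.444% lower, and Pax6 at -0.89 was the member furthest from 0. The medians were 0.04 for trophectoderm, 0.08 for endoderm, 0.07 for mesoderm and -0.13 for neural genes, and 0.00 for all named genes. With the mean of probe sets the endoderm median turned to -0.03 and the neural median was -0.05. In KD + PRDM14 against scramble + PRDM14, Pax6 was 1 of 16 members to be at least 2-fold lower, with 0 members 2-fold higher, against 0.475% of 10322 genes lower and 0.630% higher. There 24 of 37 differences were below 0, 12 (32.4%) were above it and 1, of Mesp1, was 0. Of all named genes 47.5% were above 0. The medians were 0.04 for trophectoderm, -0.11 for endoderm, -0.08 for mesoderm and -0.15 for neural genes, and -0.01 for all named genes.

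**Figure D3:**
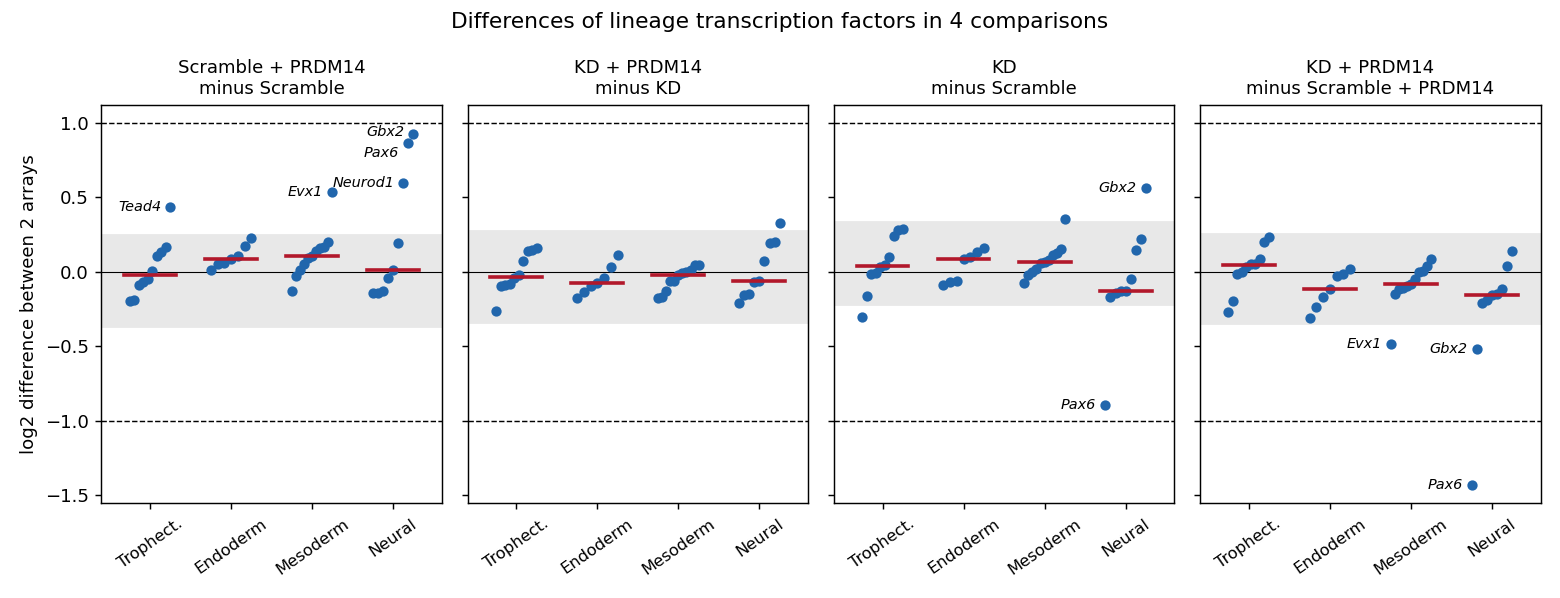
Log2 difference between 2 arrays (y axis) for each of the 37 measured lineage factors (points) by lineage (x axis) in the 4 comparisons (panels), with group medians in red, 2-fold marked by dashed lines and the lowest to highest difference of 86 sensory receptor probe sets in grey. Pax6 at -1.43 is the 1 point beyond 2-fold, and the members beyond 0.43 in size are labelled.

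The dependence of the PRDM14 difference on the knockdown was the PRDM14 difference in knockdown cells minus that in scramble cells. None of 17 members that reached the filter on any array was 2-fold or more in either direction, against 0.979% of 10519 genes above and 1.29% below. Over all 37 members, 28 had a value below 0 and 9 (24.3%) above it, against 47.8% of all named genes above 0. The median was -0.14 against -0.01 for all named genes and -0.02 for the receptor probe sets. The lowest were Gbx2 (-1.09, below the filter throughout), Pax6 (-0.54), Evx1 (-0.49) and Tead4 (-0.48). This quantity uses all 4 arrays once, so 1 array that stands apart moves it for many genes together. The scramble + PRDM14 array was the highest of the 4 for 16 of the 37 members, while the KD + PRDM14 array and the scramble array were each the lowest for 13. These counts come from the same values as the dependence, and the same counts were not made over all named genes. Whether they are unusual for the members therefore cannot be told.

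Average effects over both levels of the other factor were fitted in limma with an additive model, which leaves 1 residual degree of freedom per gene. That residual is the dependence of the PRDM14 difference on the knockdown, treated as error. The p-values and intervals therefore do not measure the spread between replicates. Of 10519 genes 0 passed an adjusted p of 5% (0.00%) for PRDM14 and 0 (0.00%) for the knockdown, and so did 0 of the 17 members tested. At an unadjusted p under 0.05, limma gave 1 member for PRDM14 and 2 for the knockdown, against 6.07% and 5.74% of all genes tested. Pax6 had an average knockdown effect of -1.16 (95% interval -1.66 to -0.66), lower in 2 of 2 pairs of arrays (limma, adjusted p = 0.80), and an average PRDM14 effect of 0.60 (0.10 to 1.10), higher in 2 of 2 pairs (adjusted p = 0.78). Eomes had an average knockdown effect of 0.26 (0.03 to 0.48), higher in 2 of 2 pairs (limma, adjusted p = 0.80). Eomes reached the filter on the 2 knockdown arrays only, so it entered the fit through the arrays where it was high. Its effect is therefore given as a description. None of these effects passes the correction for the number of genes.

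Other genes assigned to the same lineages were counted by the same 2-fold rule. Their lists of effectors, signals and factors hold none of the 40 members and were chosen with earlier results of these data known. The counts below, set beside the shares of all genes, are thus a description and no test of a lineage. A place in a list does not make a gene particular to that lineage, and Sox2 of the neural list was also a pluripotency marker here. Comparisons that start from the scramble array share it, so their calls are not separate. Of 14 measured neural genes, 10 reached the filter on at least 1 array, and their list had medians of 0.39 for PRDM14 in scramble cells and 0.25 in knockdown cells. Of these, 4 were at least 2-fold higher and none lower in scramble + PRDM14 against scramble, where 1.09% of all genes compared were higher and 1.00% lower, led by the N-cadherin gene Cdh2 (7.16 against 4.43), the neurofilament gene Nefl (8.17 against 5.58) and Sox11 (6.84 against 5.03). In KD + PRDM14 against KD, 4 were higher and none lower, against 0.359% and 0.272% of all genes compared, led by the SOX factors Sox4 (9.66 against 7.21) and Sox11 (6.83 against 4.63) and the POU factor Pou3f1 (7.47 against 5.33). In KD against scramble 8 genes could be called, of which 3 were higher and 3 lower, against 0.618% and 0.444% of all genes compared. There Nefl (7.66 against 5.58), Cdh2 (6.13 against 4.43) and Sox4 (7.21 against 9.03) were furthest apart. In KD + PRDM14 against scramble + PRDM14, where 0.630% of all genes compared were higher, Pou3f1 (7.47 against 6.24) was the 1 called.

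The mesoderm list of 17 measured genes had 6 that reached the filter on at least 1 array, 5 of them on all 4. The BMP-induced inhibitors of bHLH factors Id1 (10.20 on scramble + PRDM14 against 6.57 on scramble) and Id2 (10.52 against 7.98) were 2-fold higher with PRDM14 in scramble cells. Id1 (8.85 on KD against 6.57 on scramble), Id2 (9.82 against 7.98) and Id3 (8.69 against 7.66) were higher in the knockdown without PRDM14. The Nodal antagonist Lefty2 was lower on both knockdown arrays, at 5.67 on KD + PRDM14 against 6.85 on scramble + PRDM14 and 5.15 on KD against 6.46 on scramble. None was called in KD + PRDM14 against KD, where 0.359% of all genes compared were higher and 0.272% lower. The shares of all genes higher were 1.09% in scramble + PRDM14 against scramble and 0.618% in KD against scramble. The shares lower were 0.444% in KD against scramble and 0.475% in KD + PRDM14 against scramble + PRDM14. The list medians lay between -0.07 and 0.08 in the 4 comparisons.

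In the trophoblast list, 11 of 14 genes reached the filter on all 4 arrays. By the 2-fold rule, at most 1.09% of all genes compared were higher and at most 1.00% lower in any of the 4 comparisons. Tfap2c, an AP-2 factor of trophoblast and germ cells, was lower with PRDM14 in both backgrounds, at 6.10 on KD + PRDM14 against 7.61 on KD and 5.44 on scramble + PRDM14 against 7.23 on scramble. The keratin gene Krt18 (7.74 on KD + PRDM14 against 6.59 on KD and 6.40 on scramble + PRDM14) and the claudin gene Cldn4 (7.87 against 6.27 and 6.81) were highest on the KD + PRDM14 array, the epithelial marker Plet1 was higher on scramble + PRDM14 (6.76 against 5.61 on scramble) and the FGF-binding protein gene Fgfbp1 on KD (6.87 against 5.69 on scramble). None of the 13 measured endoderm genes, of which 9 reached the filter on at least 1 array, was called in any of the 4 comparisons. At the shares of all genes given above, so few genes could well hold no call, and the count is no result about endoderm. The endoderm list medians ran from -0.10 to 0.18, and those of the trophoblast list from 0.01 to 0.08.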

How the data were processed

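RNA was measured on 1 array for each of 4 conditions, which the titles name. The kit was GeneChip 3' IVT Express, per the labels' protocols, and the submitters' processing notes name Affymetrix Expression Console. The values deposited by the authors are log2 probe set signals with nearly equal medians. Their range, 2.78 to 13.2, is the basis for the log base, and how probes were summarised and background removed is not stated. The number of per-sample columns left out was 0.

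Probe sets with 1 gene symbol in the platform annotation were used, and the Entrez identifiers of all 37 measured members were found in the RefSeq gene table (GRCm38.p6). Each gene took the values of its brightest probe set by mean. A gene was called when 2 arrays differed at least 2-fold and the higher reached the filter, the median of all named values (5.40), a rule of size with no test. Differences, on the log2 scale, are with PRDM14 minus without it, or KD minus scramble. The additive fit used limma 3.58.1 in R 4.3.3 (lmFit, then eBayes with an intensity trend, Benjamini-Hochberg over all genes). The procedure was tested on simulated data with independent noise and changes with PRDM14 alone. That setting holds no dependence on the knockdown, so its outcome does not carry over to the additive fit here. The members and lists were chosen with earlier results of these data known. Members that reached the filter on any array, had a called probe set, passed the fit, or had 1 of the 2 largest differences of their group are given array by array, and the others by ranges. Of the other lists, at most 3 called genes per list and comparison are named. Tried in turn were thresholds of 1.5- and 3-fold, no filter and the 75th percentile (6.82), raised values, the mean of probe sets, repeated quantile normalization, and no trend.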

Additional observations from a re-analysis of the deposited data

Results flagged for a closer look

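Gbx2 had PRDM14 differences of opposite sign in the 2 backgrounds that lay more than 2-fold apart. The difference in knockdown cells minus that in scramble cells was -1.09, from -0.16 in KD + PRDM14 against KD and 0.93 in scramble + PRDM14 against scramble. The difference between the backgrounds was not tested, since each condition had 1 array. The single Gbx2 probe set read 4.75 on KD + PRDM14, 5.27 on scramble + PRDM14, 4.91 on KD and 4.34 on scramble, all below the filter, and the value was 0 with signals raised to the filter.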

How the results depend on the processing

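Counts of members called kept within 1.5 times of the reported count except as follows. With a 1.5-fold threshold, 2 members were called in scramble + PRDM14 against scramble (Pax6 and Neurod1) and 1 in KD against scramble (Pax6). Of all named genes, without a filter, 5.19% and 3.22% were at least 1.5-fold apart in these comparisons. In KD + PRDM14 against scramble + PRDM14 the count of 1 became 0 at 3-fold and 0 with the mean of probe sets. Without a filter the dependence on the knockdown called 1 member, Gbx2. The share of all genes by that rule is not given here, and with the filter it was 0.979% above and 1.29% below. The additive fit passed 0 members with no trend, no filter, the mean of probe sets or repeated quantile normalization. Group medians were at most 0.15 in size, and their signs were not stable. With the mean of probe sets the endoderm median in KD against scramble turned to -0.03 and the trophectoderm median in KD + PRDM14 against scramble + PRDM14 to -0.01. Over the members that reached the filter, the trophectoderm median for PRDM14 in scramble cells turned to 0.10, and the neural median was 0.60 there and 0.19 in knockdown cells, from Pax3, Pax6 and Neurod1 alone. With signals raised to the filter most medians were 0. No called difference changed sign. No array could be left out, since each condition had 1. The additive fit rests on 2 pairs of arrays per factor, and there were no replicate numbers to use as a block. Signals near or below the filter limit what can be said of the 20 members that never reached it.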
